A study of Homo sapiens with 2 samples.

Results

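The pseudouridine synthases studied here are 10 human genes, TRUB1, TRUB2, DKC1, PUS1, PUS3, PUS7, PUS7L, PUS10, RPUSD3 and RPUSD4. They were chosen by gene name from a larger family, with the ratio of TRUB1 already known, so their ratios between the arrays are given as a description. The array names 19775 genes by a probe set that carries a single gene symbol, and 9 of the 10 are among them. DKC1 has 3 probe sets, which list it together with SNORA56 and MIR664B, and 1 of these is tied to DKC1 by the RefSeq accession of its target. The family has 23 probe sets in all. RNA levels were measured in AGS cells, an epithelial line from a human gastric adenocarcinoma, on 2 one-colour Affymetrix arrays, 1 from cells labelled control and 1 from cells in which galectin-3 was silenced with a double-stranded siRNA. The siRNA sequence, its dose and the time of harvest, and what the control cells received, are missing from the labels used here. The design asks how gene expression differs once galectin-3 is silenced. With 1 array a group there is no replicate, so differences are described by size, with no test and no p-value.

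Pseudouridine synthases turn uridine already built into RNA into its isomer pseudouridine, in which the base is joined to the sugar through a carbon atom. Most act alone and recognise their site in tRNA, mRNA or mitochondrial RNA by sequence and shape. DKC1, also called dyskerin, instead works inside H/ACA particles, where a small guide RNA selects the site in ribosomal or spliceosomal RNA, and it also binds the RNA of telomerase. The human enzymes fall into families named after bacterial relatives, TruA (PUS1, PUS3), TruB (TRUB1, TRUB2, DKC1), TruD (PUS7, PUS7L) and RluA (RPUSD3, RPUSD4), with PUS10 standing apart.

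The arrays carried the labelled silencing and most of the markers listed for a gastric epithelial line. LGALS3, which encodes galectin-3, had a signal of 20206 in control cells and 2699.8 in silenced cells, 13.4% of the control. Signals are compared with a background floor set on each array from olfactory receptor genes, 138.4 for control and 109.5 for silenced, and a signal below the floor is raised to it. Of 10 gastric epithelial markers 8 were above the floor, while the trefoil factors TFF1 and TFF2 were below it on both arrays. All 8 had a ratio above 0, as did 4686 of the 9579 genes above the floor on both arrays. Of the 8 markers 1 passed 2-fold, CLDN4 of tight junctions, at 1355.7 in the control against 2871.4 in silenced cells. The 8 leukocyte markers on the array were below the floor on both. Of 6 fibroblast markers only COL1A1 was above it, with signals of 816.3 and 1502, and of 5 endothelial markers 1 was above it on 1 array. In RNA from a whole culture, fewer cells with a transcript and less of it per cell cannot be told apart.

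TRUB1 was the member that differed most, and the only one past 2-fold. TRUB1 places pseudouridine in the T-loop of tRNAs and in a set of mRNAs with a similar stem-loop, and also binds the precursor of the let-7 microRNA. Its brightest probe set, 226339_at, gave 2362.1 in the control and 614.7 after silencing, or 26.0% of the control. The log2 ratio of silenced over control was -1.94, which is 3.84-fold lower. Of the 10514 genes measured, meaning above the floor on at least 1 array, 17 had a lower ratio. Among the 2076 genes whose mean log2 signal lay within 0.5 of that of TRUB1, only PLK1 at -2.03 and GPX2 at -2.02 were lower. Both were named after their values were seen. These ranks are a description, since the ratio of TRUB1 was known when the family was chosen. Calling a gene past 2-fold where its log2 ratio was 1 or more in size, 3.07% of all genes were lower, 3.31% were higher and 6.38% passed in either direction.

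The other TRUB1 probe sets differed in the size of the drop. Probe set 235447_at gave 302 in control cells and 90.9 in silenced cells, below the floor there, so it was at least 2.76-fold lower. Probe set 241606_s_at gave 341.5 and 232.5, a log2 ratio of -0.55, or 1.47-fold lower. The remaining pair lay under both floors and have no ratio, 241605_at with signals of 13.8 and 32.6 and 236020_s_at with 37.7 and 8.5. All 3 probe sets with a usable signal were thus lower on the silenced array, 2 of them by more than 2-fold, but the 2 that exceeded both floors differed from each other by 1.39 on the log2 scale. For comparison, log2 ratios of probe sets for the same gene had an SD of 0.32 over 4728 genes, a spread within 1 pair of RNA samples that says nothing of repeat cultures. Whether the TRUB1 probe sets read different transcripts was not tested. Of all probe sets above the floor on at least 1 array, 3.09% were at least 2-fold lower.

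**Figure D1:**
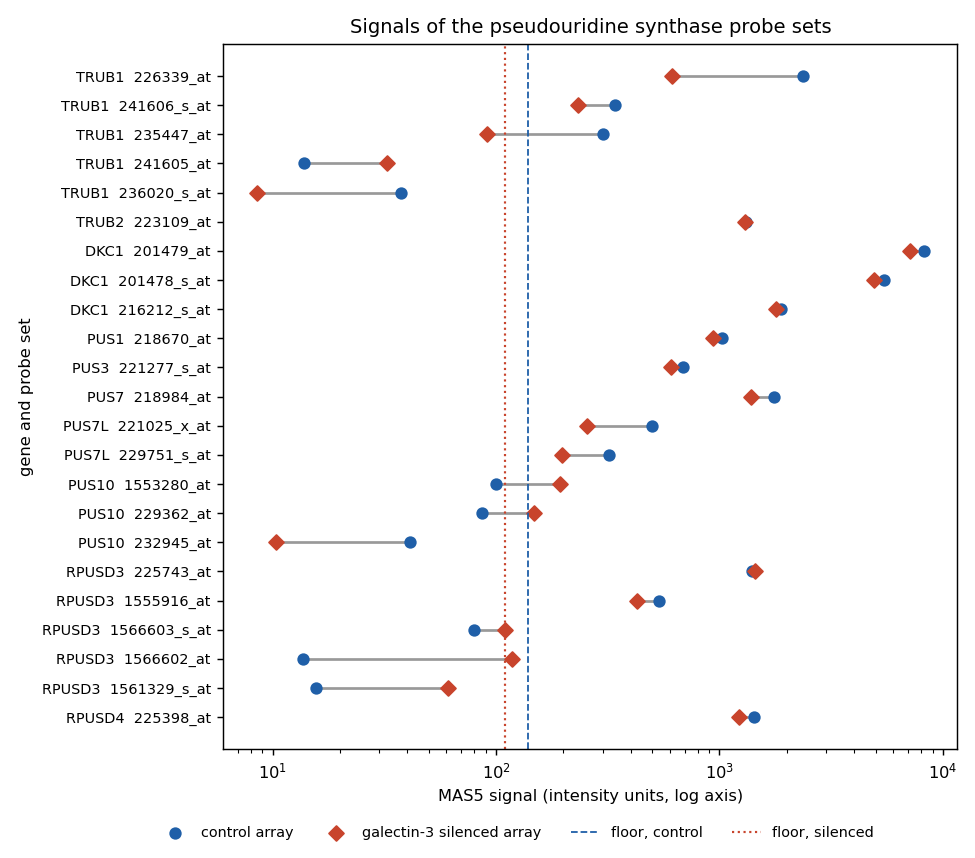
MAS5 signal, on a log axis, of each of the 23 probe sets of the pseudouridine synthases, with a circle for the control array and a diamond for the galectin-3 silenced array. The vertical lines mark each array's background floor, 138.4 and 109.5, and the widest gap among probe sets above both is that of TRUB1 226339_at, 2362.1 against 614.7.

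The other TruB enzymes did not share this drop. TRUB2, a mitochondrial enzyme that modifies mitochondrial mRNA and is needed for the large mitochondrial ribosomal subunit, had a single probe set with signals of 1311.2 and 1300.8, which is 99.2% of the control and a log2 ratio of -0.01. For DKC1 the probe set tied to it by accession, 201479_at, gave 8224.9 in the control and 7088.2 after silencing, a log2 ratio of -0.21. Its other probe sets gave 5471 and 4914.7, and 1881.2 and 1797.7, with log2 ratios of -0.15 and -0.07. The 3 DKC1 probe sets thus lay within 0.15 of each other and all slightly under 0. SNORA56, an H/ACA guide RNA, and MIR664B lie within the DKC1 gene. Apart from 201479_at, tied to DKC1 by its accession, the annotation does not say which of the 3 products these probe sets detect.

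The stretches just upstream of TRUB1, TRUB2 and PUS3 are shown because the first 2 are relatives with very different ratios, and PUS3 shares a sequence feature with TRUB1. Each is the 250 bases before the gene's start, from RefSeq on GRCh38.p14, written 5′ to 3′ on the gene's own strand. TRUB1 is at chr10:114937945-114938194 (+), TRUB2 at chr9:128322448-128322697 (-) and PUS3 at chr11:125903207-125903456 (-). Capitals mark matches, on either strand, to the letters ACTACA, any 2 bases and TCCCA, a form of the site bound by ZNF143, to the GC box GGGCGG, and to the E-box CACGTG. Overlapping matches were counted apart.
TRUB1: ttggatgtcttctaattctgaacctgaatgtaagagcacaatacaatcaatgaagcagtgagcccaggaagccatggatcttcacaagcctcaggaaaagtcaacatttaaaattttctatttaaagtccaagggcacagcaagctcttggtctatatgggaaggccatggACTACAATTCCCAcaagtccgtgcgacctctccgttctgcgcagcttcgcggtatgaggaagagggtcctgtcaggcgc
TRUB2: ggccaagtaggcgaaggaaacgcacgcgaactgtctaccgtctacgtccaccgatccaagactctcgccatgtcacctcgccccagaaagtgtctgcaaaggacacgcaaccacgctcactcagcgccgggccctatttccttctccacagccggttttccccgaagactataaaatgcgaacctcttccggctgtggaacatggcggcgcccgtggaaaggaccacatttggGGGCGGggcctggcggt
PUS3: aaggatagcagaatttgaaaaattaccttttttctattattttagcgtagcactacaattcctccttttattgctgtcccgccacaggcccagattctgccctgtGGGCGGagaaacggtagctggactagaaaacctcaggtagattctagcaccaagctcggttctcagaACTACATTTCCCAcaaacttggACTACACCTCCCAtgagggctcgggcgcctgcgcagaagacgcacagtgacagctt

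Of the 10 genes 8 had such a stretch in the RefSeq table used. The ZNF143-type letters occurred once in TRUB1, starting 79 bases before the gene's start, and at 78 and 56 bases before that of PUS3, and in none of the other 6. They occurred in 1.40% of the 27305 upstream stretches in the table. The log2 ratios of TRUB1 and PUS3 were -1.94 and -0.18, and a link between motif and ratio was not tested. The GC box was found in 5 of the 8, among them TRUB2, PUS3 and DKC1 but not TRUB1, against 42.3% of all stretches. The E-box was found in RPUSD4 alone, at 3 places, against 6.49% of all stretches. These motifs were picked after the sequences had been read, and a match is a description of the letters only. TRUB2 has 2 and PUS10 has 4 start sites in the table, of which the first listed was used.

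Both TruD genes had lower signals on the silenced array, each short of 2-fold. PUS7, which modifies tRNAs and many mRNAs at a short recognition sequence, gave 1760.9 in the control and 1380.7 after silencing, 78.4% of the control and a log2 ratio of -0.35. Its relative PUS7L gave 320.3 and 198.1 on probe set 229751_s_at, a log2 ratio of -0.69. A second PUS7L probe set, 221025_x_at, of the kind that can cross-hybridise, gave 500.6 and 255.3, a log2 ratio of -0.97 or 1.96-fold lower. Of the 10514 genes measured, 788 had a lower ratio than the -0.69 of PUS7L.

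The TruA genes and the mitochondrial RluA genes lay close to no difference. PUS1, which modifies tRNAs in the nucleus and in mitochondria and is mutated in a myopathy with sideroblastic anaemia, gave 1024.8 in the control and 931.7 after silencing, a log2 ratio of -0.14. PUS3, which acts on the anticodon arm of tRNAs, gave 689.5 and 607.7, a log2 ratio of -0.18. RPUSD4, which modifies mitochondrial ribosomal RNA and tRNA, gave 1423.2 and 1220.7, a log2 ratio of -0.22. All 3 were thus below the control by less than that SD of 0.32.

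RPUSD3, a mitochondrial enzyme that acts on mitochondrial mRNA, gave 1397 in the control and 1439 after silencing on its brightest probe set, a log2 ratio of 0.04. Another probe set, 1555916_at, gave 535.3 and 429.4, a log2 ratio of -0.32, so the direction of RPUSD3 was not the same on both. Its other 3 probe sets were near or below the floor. Of these, 1566602_at went from 13.7 to 117.3, which is above the silenced floor but below the control floor, so that neither it nor 1566603_s_at, with 79.9 and 109.7, has a direction.

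PUS10 was the only member with a higher signal on the silenced array on every probe set that gave a direction. PUS10 modifies tRNAs in the cytoplasm, and in the nucleus it takes part in microRNA processing. Its probe set 1553280_at gave 100.1 in the control and 192.7 after silencing, and 229362_at gave 86.9 and 147.2. Both control signals were below the floor of 138.4, so PUS10 was at least 1.39-fold higher by the first and at least 1.06-fold by the second. The third, 232945_at, lay under both floors, with signals of 41.3 and 10.4. The floor decides how much can be said of this gene. Without the olfactory receptor pseudogenes, some of which are bright here, the control floor is 87.8, the first PUS10 probe set is above it on both arrays, and its log2 ratio is 0.94.

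Set in order, the log2 ratios ran from TRUB1 at -1.94 through PUS7L at -0.69, PUS7 at -0.35, RPUSD4 at -0.22, DKC1 at -0.21, PUS3 at -0.18, PUS1 at -0.14, TRUB2 at -0.01 and RPUSD3 at 0.04 to PUS10, with its bound of 0.48. The gap between TRUB1 and PUS7L was 1.25, which is less than the 1.39 between the TRUB1 probe sets, and by 241606_s_at, at -0.55, TRUB1 would come after PUS7L. The other neighbours above both floors lay 0.34 or less apart, and PUS10, as a bound, has only a least distance from RPUSD3. Without replicate arrays it cannot be said which neighbours differ beyond the spread of cultures. Of the 14 family probe sets that exceeded both floors 13 had a ratio below 0 and 1 above it, where 52.5% of all 20338 such probe sets were below 0. The 14 are not separate genes, since 3 of them are those of DKC1, and TRUB1, PUS7L and RPUSD3 each have more than 1. Of the 9 genes with a probe set of their own 1 was called lower and 0 were called higher, beside 3.07% and 3.31% of all genes. Their median log2 ratio was -0.18, and -0.20 with DKC1, where the median of all genes was -0.02. Leaving out TRUB1 the median of the remaining 9, DKC1 included, was also -0.18.

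**Figure D2:**
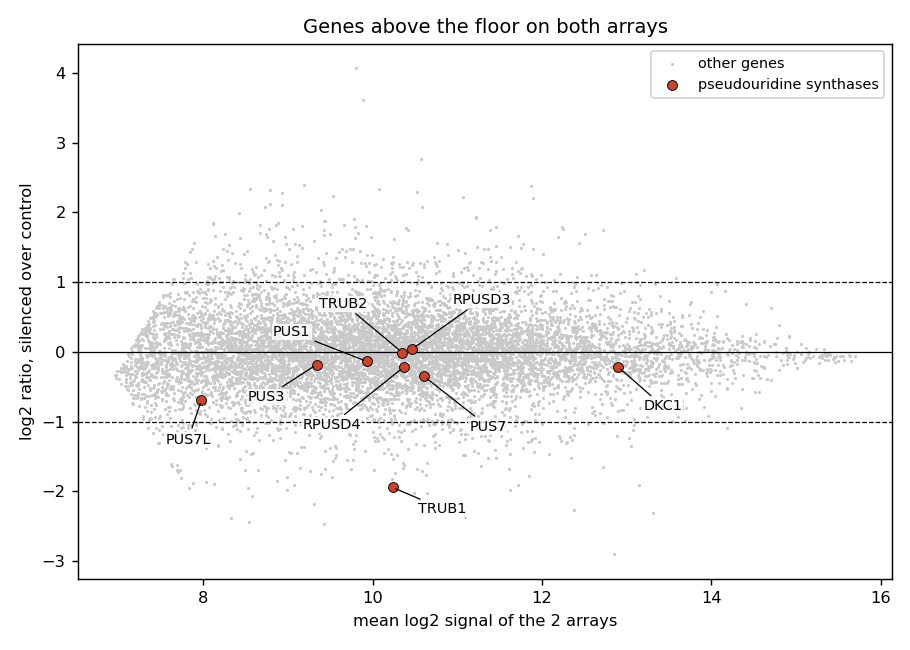
Log2 ratio of silenced over control against the mean log2 signal of both arrays for the genes above the floor on both, in grey, with the pseudouridine synthases in red and dashed lines at 2-fold either way. TRUB1 lies at -1.94 among genes of middle signal, while the other members shown lie between -0.69 and 0.04, and PUS10 is not shown because its ratio is a bound.

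A change in scaling moves every gene together, so the direction of the smallest ratios is not settled. With the hybridization controls set equal the median of all genes was 0.17, and with the poly-A controls set equal it was -0.25. Over these and the other alternative settings TRUB2 ran from -0.25 to 0.17, PUS1 from -0.37 to 0.04 and RPUSD3, where its ratio had a direction, from -0.19 to 0.22. Ratios below 0 throughout were those of PUS7, between -0.58 and -0.17, PUS7L, between -0.93 and -0.51, RPUSD4, between -0.45 and -0.04, and PUS3, between -0.42 and -0.00099. TRUB1 stayed between -2.18 and -1.76 under every setting except those that changed the probe set standing for the gene. It was -1.25 with the median of its probe sets above both floors, and -0.55 with the probe set of smallest ratio, which is short of 2-fold.

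**Figure D3:**
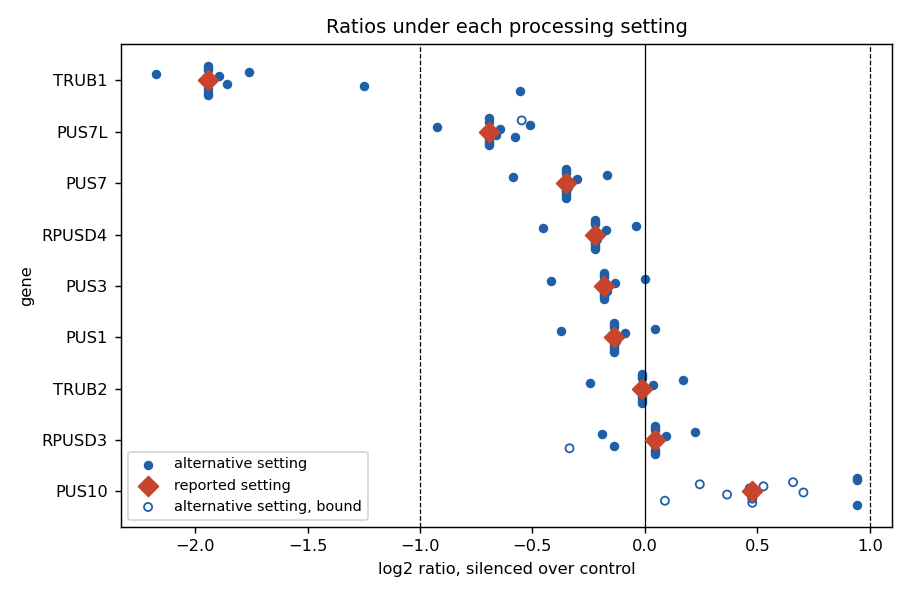
Log2 ratio of silenced over control of 9 pseudouridine synthases under the reported setting (diamonds) and each alternative setting (circles, open where the ratio is a bound), with dashed lines at 2-fold. TRUB1 is past 2-fold except with the probe set of smallest ratio, at -0.55, and the PUS10 diamond at 0.48 is a lower bound.

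The human family has 3 further genes that were measured. RPUSD1, of the RluA family, gave 231.7 in the control and 435 after silencing, 1.88-fold higher, with a log2 ratio of 0.91. RPUSD2, of the same family, gave 643.6 and 440.2, a log2 ratio of -0.55, and PUSL1, of the TruA family, gave 926.9 and 722, a log2 ratio of -0.36. None of the 3 passed 2-fold as reported, although RPUSD1 did so with the hybridization controls set equal, at 1.09. Each has a single probe set, and the RluA genes went in different directions.

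The genes that work beside the synthases are given as counts past 2-fold, to be read beside the 6.38% of all genes that passed in either direction. Of 10 genes of the H/ACA particle and its assembly, the partners of DKC1, 0 passed 2-fold, with a median log2 ratio of -0.26. Of these genes 9 had a ratio below 0, where 51.1% of all genes above both floors did. The farthest from 0 was WRAP53, which brings H/ACA particles to Cajal bodies, with signals of 1053.2 and 628.2 and a log2 ratio of -0.75. Of 7 measured genes of the box C/D particle, which guides RNA methylation, 0 passed, with a median of -0.15 and the methyltransferase FBL farthest at -0.45. Of 11 genes of telomerase and telomere maintenance 0 passed, with a median of 0.00 and the telomere-binding TERF2 farthest at 0.97, while the telomerase gene TERT was below the floor on both arrays. Of 20 genes of mitochondrial rRNA maturation, the setting in which TRUB2, RPUSD3 and RPUSD4 act, 0 passed and the median was -0.17. Of those above both floors the rRNA methyltransferase MRM1 was farthest at -0.65, while PRORP, the nuclease of mitochondrial RNase P, named after its value was seen, had signals of 218.5 and 78.1 and was at least 1.99-fold lower.

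Among other enzymes that modify tRNA, none of those measured had a ratio as low as the -1.94 of the brightest TRUB1 probe set. That value was known when the family was chosen. GON7 was at -1.28, and the TRUB1 probe sets above both floors had a median of -1.25. That median leaves out 235447_at, a TRUB1 probe set at least 2.76-fold lower. Of 24 tRNA methyltransferase genes 0 passed 2-fold, with a median of -0.09 and NSUN2, a cytosine methyltransferase, farthest at -0.68. Of 4 dihydrouridine synthases 0 passed, with DUS2 farthest at -0.46. Of 29 genes of anticodon loop modification 1 passed, GON7, a subunit of the complex that makes threonylcarbamoyl adenosine, with signals of 1626.8 and 669.8 and 2.43-fold lower. Of 16 genes of the m6A machinery, mostly of mRNA but with the rRNA methyltransferases METTL5 and ZCCHC4 among them, 0 passed. PCIF1, which methylates the cap-adjacent adenosine, was farthest at -0.47. Of 12 genes of microRNA processing, a process in which TRUB1 and PUS10 also take part, TUT7, a uridylyltransferase of precursor microRNAs, was 2.08-fold higher and 0 were 2-fold lower. Its 4 other probe sets had log2 ratios from 0.66 to 1.21.

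Ribosome biogenesis, which uses the pseudouridines made by DKC1, had the lowest median of these lists, -0.41, with 24 of 26 measured genes below 0, where 51.1% of all genes above both floors were. Only TCOF1, a nucleolar factor of rRNA transcription, passed 2-fold, with signals of 706.5 and 327.9 and 2.15-fold lower, and its other probe set above the floor had a log2 ratio of -1.77. Over all lists, 161 genes were measured, of which 1 was called higher and 2 lower, beside 3.31% and 3.07% of all genes. With the hybridization controls set equal 5 were higher and 1 lower, but all genes shifted with that scaling, 576 being higher and 183 lower. The medians of the H/ACA and ribosome biogenesis lists were below 0 under every alternative setting tried. Those of the box C/D, mitochondrial, tRNA, m6A and microRNA lists rose above 0 under at least 1, the scaling on hybridization controls among them. The telomere median, 0.00 as reported, was above 0 under 9 alternatives and below 0 under 6.

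**Figure D4:**
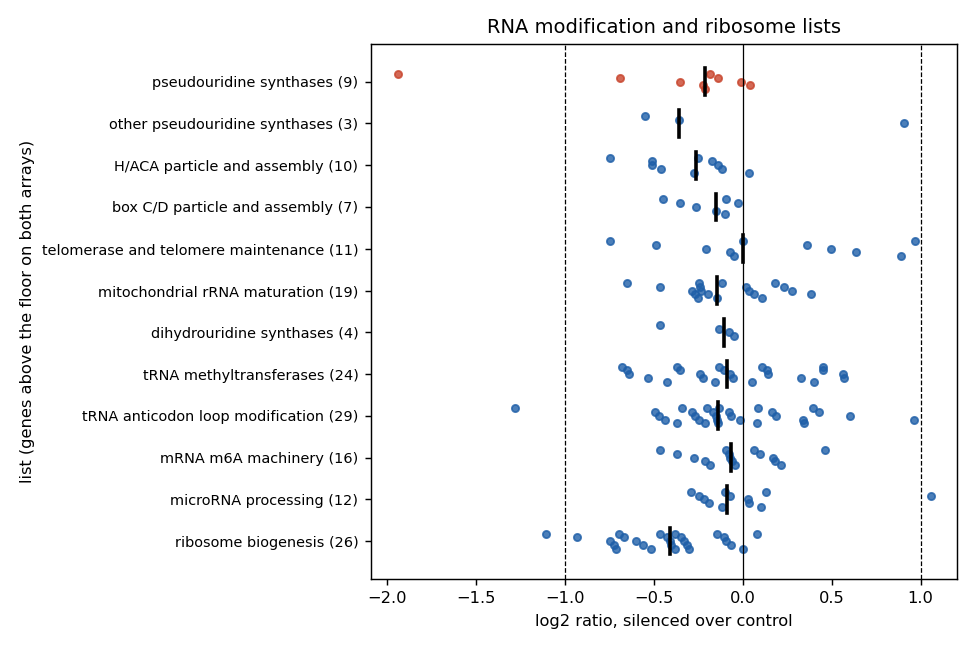
Log2 ratio of silenced over control for each gene above the floor on both arrays, as points, in the pseudouridine synthases (red) and the related lists (blue), with the number of genes in parentheses, a black bar at each median and dashed lines at 2-fold. TRUB1 is the red point at -1.94, farther from 0 than any point of the other lists. Its ratio was known when the family was chosen. The ribosome biogenesis median is at -0.41.

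The genes whose pair of log2 signals lay nearest that of TRUB1 over the 2 arrays were INSIG1, FAM8A1 and OIP5. INSIG1, a regulator of sterol synthesis, had a log2 ratio of -1.83 and lay 0.08 log2 units away, FAM8A1 had -1.74 and lay 0.15 away, and OIP5, a centromere protein, had -1.66 and lay 0.27 away. Probe brightness differs between genes, so nearness on 2 arrays describes the signals alone.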

How the data were processed

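RNA was extracted with Trizol and hybridised as biotin-labelled cRNA, per the labels' protocols. The authors deposited linear intensity values from MAS5, per the submitters' processing notes, whose version, scaling target and filters were not stated. MAS5 summarises each probe set alone, so low signals are noisy, and scaling arrays to a common mean hides a change in total RNA.

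Probe sets were named from the platform's annotation, with symbols set against RefSeq. The floor was the 95th percentile of 135 olfactory receptor probe sets on each array. A gene took its probe set of highest mean log2 signal, leaving out _x_at probe sets where it had another. A ratio with 1 array under its floor is a bound, and has no direction where the measured signal lies below the other array's floor. Such ratios stay in list medians. Arrays have no counts, and their number limits the precision. Calls rest on size alone, a log2 ratio of at least 1, and the procedure was tested on simulated data. The changes put into those data were all larger than 2-fold, with no spread between cultures. They cannot say how often a call here is wrong. The genes named in related lists are those past 2-fold, or the farthest from 0 above both floors. Members and lists were chosen with earlier results of these data known. Python 3.11.15, pandas 2.3.3 and statsmodels 0.14.6 were used.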

Additional observations from a re-analysis of the deposited data

How the results depend on the processing

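The TRUB1 ratio stayed below 0 under all 15 alternatives. It moved to -1.25 with the median of probe sets above both floors, and to -0.55 with the probe set of smallest ratio, where 0 members were lower. In every other alternative 1 member was at least 2-fold lower, and in all of them 0 were higher. The median of the members ran from -0.42 to -0.00. The background moved most. With no floor, a setting that also counts genes under the floor, 2459 of all genes were lower and 2466 higher. With hybridization controls set equal 183 were lower and 576 higher, and with poly-A controls set equal 633 and 186. With the probe set of largest ratio 491 were lower. The related lists are to be read beside these counts of all genes. In the lists 4 genes were lower with no floor, and 1 lower and 5 higher with hybridization controls equal. With poly-A controls equal 4 were lower and 0 higher, and with the probe set of largest ratio 7 were lower. With GAPDH and ACTB equal 3 were higher, beside 392 of all genes. With the median or the smallest-ratio probe set 0 were higher, beside 322 and 238 of all genes. The cause was not tested, except that a scaling shifts all genes by construction. Naming DKC1 by accession and leaving olfactory pseudogenes out of the floor were chosen after seeing the data. No paired analysis was possible because each group has 1 array. Signals near the floor, as for PUS10, allow only bounds.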
